A study of Rattus norvegicus with 90 samples.

Results

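A set of 150 transcripts had lower levels after 9 h of exposure to the high dose of thioacetamide-S-oxide in hepatocytes, renal cells and cardiomyocytes of the rat alike. The set was chosen from 40071 Ensembl transcripts by its change at 9 h. For each cell type the change was log2 of the mean high-dose level plus 1 over the mean vehicle level plus 1, with levels in CPM (estimated counts scaled so that the transcripts of every library sum to the same total). The 11421 transcripts with a mean of at least 2 CPM over the vehicle and high-dose libraries of every cell type were ranked by the weakest of their 3 changes, and 213 had all 3 changes below -0.3. The 150 with the lowest values form the set. The direction and the size of the change at 9 h are therefore what chose these transcripts, and the 9 h high-dose values below describe the set and test nothing.

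The cells were cultured cells, all labelled as from Sprague-Dawley rats. They were exposed to vehicle, a low dose or a high dose for 9 or 24 h, with 5 libraries for each of the 18 conditions. Per the study's methods, the vehicle was culture medium for the hepatocytes and the renal cells. The doses were 0.025 and 0.125 mM for primary hepatocytes, 0.125 and 0.5 mM for renal tube epithelial cells and 0.5 and 1.5 mM for cardiomyocytes, so a high dose is a different concentration in each cell type. The hepatocytes and the renal cells were bought as cryopreserved stocks, per the study's methods, and plated before exposure, and the source of the cardiomyocytes is not given in the sources used here. Poly-A RNA was sequenced from each culture. No source used here says that the 5 cultures of a group came from different animals, so the p-values below measure only the spread between these libraries.

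Thioacetamide is a liver toxicant that becomes harmful once oxidised, and thioacetamide-S-oxide is the first product of that oxidation. The liver carries most of the enzymes that make it. The cultures here, hepatocytes included, were given thioacetamide-S-oxide itself. A lower transcript level can follow from slower synthesis or faster decay, and sequencing of steady RNA measures the level alone. In a whole culture, moreover, fewer cells holding a transcript and less of it per cell cannot be told apart. The deposited tables name transcripts by Ensembl identifier without a gene, and 0 of them could be matched to a gene symbol with the gene table used here. The transcripts are therefore described by identifier, length and level, no sequence is shown, and the labelled cell types were not checked against their markers.

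The 90 libraries held between 2993135 and 61897142 estimated counts, with a median of 27860604. Transcripts took 84.1% to 95.3% of these counts in every library but MS-183, a hepatocyte vehicle culture at 24 h, where they took 8.33% and left 249303 counts. No pair of libraries held identical values. A further 4 libraries had few detected transcripts beside the others of their group: low-dose renal library MS-145 at 24 h with 19227, low-dose cardiomyocyte library MS-158 at 9 h with 19177, and cardiomyocyte libraries MS-172 (low dose) and MS-178 (high dose) at 24 h with 16942 and 17678. Low-dose renal library MS-130 at 9 h and renal vehicle library MS-137 at 24 h were also below the others of their groups, with 20449 and 20458. The hepatocyte vehicle libraries at 24 h are numbered MS-181 to MS-185, while the other 85 libraries run from MS-91 to MS-180. Whether they were prepared or sequenced apart from the rest is not given in the sources used here, and for the hepatocyte comparisons with vehicle at 24 h such a batch and the treatment cannot be told apart.

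At 9 h the median change of the 150 transcripts between high dose and vehicle was -0.68 in hepatocytes, -0.66 in renal cells and -0.63 in cardiomyocytes (log2 of mean CPM plus 1). Over all 11421 transcripts above the level minimum the medians were -0.09, -0.01 and 0.07. The weakest of the 3 changes was the one in cardiomyocytes for 63 transcripts, in hepatocytes for 44 and in renal cells for 43. A change below -1 was found for 32 transcripts in hepatocytes, 34 in renal cells and 22 in cardiomyocytes, and for 4 in all 3. Over the 11421 transcripts, the changes correlated across transcripts with Pearson's r = 0.13 between hepatocytes and renal cells, r = 0.08 between hepatocytes and cardiomyocytes and r = 0.42 between renal cells and cardiomyocytes. These points share the length and base composition of the transcript.

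The level summed over the 150 transcripts fell in steps with dose at 9 h in each cell type, as far as the group means show. In hepatocytes it was 8181 ± 474 CPM in vehicle cultures, 6706 ± 237 CPM at the low dose and 4846 ± 229 CPM at the high dose (mean ± SD, n = 5 each here and below). In renal cells the sums were 11420 ± 120.5 CPM, 9842 ± 229 CPM and 7157 ± 162.7 CPM. In cardiomyocytes they were 13820 ± 179.3 CPM, 11300 ± 1960 CPM and 8816 ± 698 CPM. The wide SD at the low dose in cardiomyocytes came with library MS-158 at 7913 CPM, whereas the other 4 low-dose libraries lay between 11780 and 13020 CPM, below all 5 vehicle libraries. In vehicle cultures at 9 h the set held 0.818% of all transcript counts in hepatocytes, 1.14% in renal cells and 1.38% in cardiomyocytes.

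**Figure D1:**
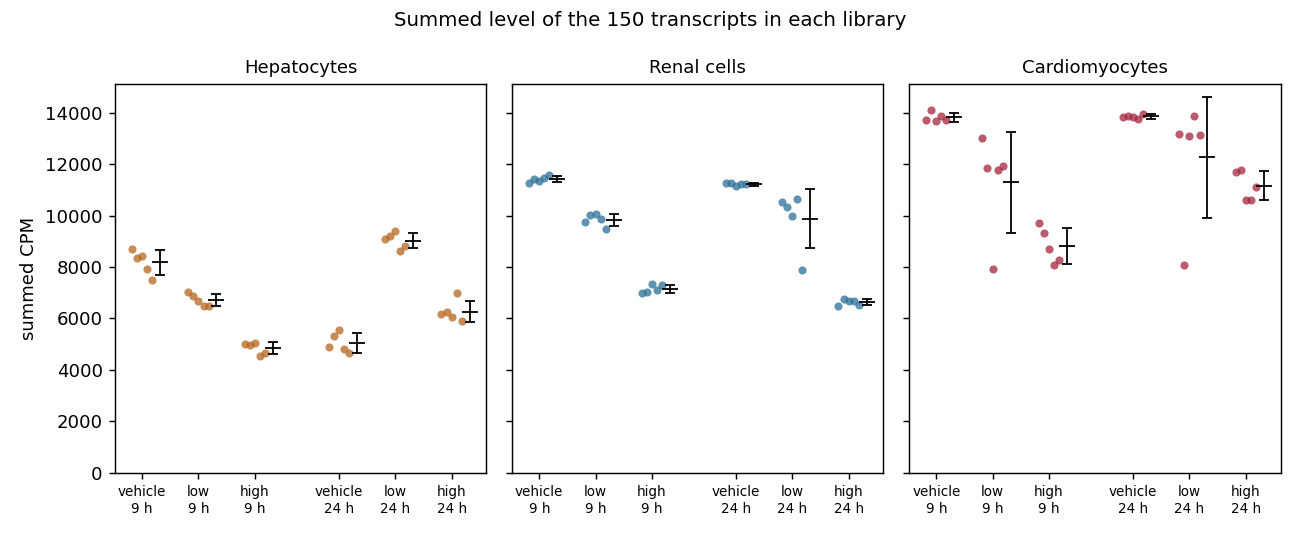
Level summed over the 150 transcripts (CPM, linear axis from 0) in each of the 90 libraries, by cell type, dose and time. Points are libraries, and the bars beside them are the mean and SD of 5. Renal high-dose libraries sit below the vehicle libraries at both times, while hepatocyte vehicle libraries at 24 h lie between 4646 and 5553 CPM, lower than those at 9 h (7506 to 8711 CPM).

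The transcript ranked first, ENSRNOT00000019579, is 5354 bases long and had changes of -1.98 in hepatocytes, -1.47 in renal cells and -1.39 in cardiomyocytes. In hepatocytes at 9 h its vehicle libraries were at 34.2, 36.2, 36.6, 38.8 and 39.3 CPM, and its high-dose libraries at 7.13, 8.02, 8.60, 9.60 and 9.92 CPM. The low-dose libraries, at 18.2 to 20.7 CPM, overlapped with neither group. In renal cells the transcript was at 6.17, 6.55, 7.29, 7.44 and 7.84 CPM with vehicle and at 1.71, 1.79, 1.90, 1.93 and 2.19 CPM at the high dose, with the low dose between them at 2.89 to 5.27 CPM. In cardiomyocytes the vehicle libraries held 43.3, 46.2, 48.2, 50.6 and 51.6 CPM and the high-dose libraries 14.5, 16.4, 17.5, 18.3 and 21.5 CPM. Of the cardiomyocyte low-dose libraries, 1 was at 10.96 CPM, below every high-dose library, and the others were at 22.1 to 28.7 CPM, above them. In each of the 90 libraries its estimated count was whole to within 0.001, so no reads were divided between it and another transcript.

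The transcript ranked second, ENSRNOT00000074586, is 1139 bases long, and its weakest change was the one in hepatocytes (-1.13, beside -1.25 in renal cells and -1.71 in cardiomyocytes). Its 9 h levels in cardiomyocytes were between 96.6 and 110.6 CPM (median 104.7 CPM) with vehicle and 29.3, 29.6, 31.1, 32.2 and 32.2 CPM at the high dose. No high-dose library came near a vehicle library. At the other end of the ranking, the set ended with ENSRNOT00000006454, whose weakest change was -0.3577 in renal cells beside -1.97 in hepatocytes and -0.61 in cardiomyocytes. The first transcript left out, ENSRNOT00000006408, had a weakest change of -0.3574 in cardiomyocytes beside -1.45 in both other cell types. The limit therefore separates transcripts whose values hardly differ, and membership near it is arbitrary.

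The rule did not use the low-dose libraries, although the comparison of low dose with vehicle at 9 h shares the vehicle libraries with it and so gives no separate support. The group means ran in the order vehicle, low, high for 96% of the 150 transcripts in hepatocytes, 76% in renal cells and 65.3% in cardiomyocytes. The median log2 fold change at the low dose was -0.28 in hepatocytes, -0.24 in renal cells and -0.22 in cardiomyocytes. By edgeR's quasi-likelihood test (a call needs a Benjamini-Hochberg adjusted p no larger than 0.05 and a fold change of 0.41 or more, up or down, in natural logs), 15 transcripts were lower and none higher in hepatocytes, with 1 of the set not tested, where 1.22% of all 16572 transcripts tested were lower and 1.12% higher. At an unadjusted p under 0.05 there were 87 of the set in either direction (58.4% of those tested, against 30.8% over all). In renal cells 24 were lower and 1 higher, against 4.41% lower and 2.28% higher over all. In cardiomyocytes 13 were lower and 1 higher, against 1.14% lower and 1.28% higher over all. Without library MS-158 these were 11 lower and 2 higher, against 2.01% and 2.39%. For scale, the contrast of the rule itself gave 76, 88 and 95 transcripts called lower in hepatocytes, renal cells and cardiomyocytes, where 9.95%, 10.9% and 6.41% of all transcripts tested were lower.

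**Figure D2:**
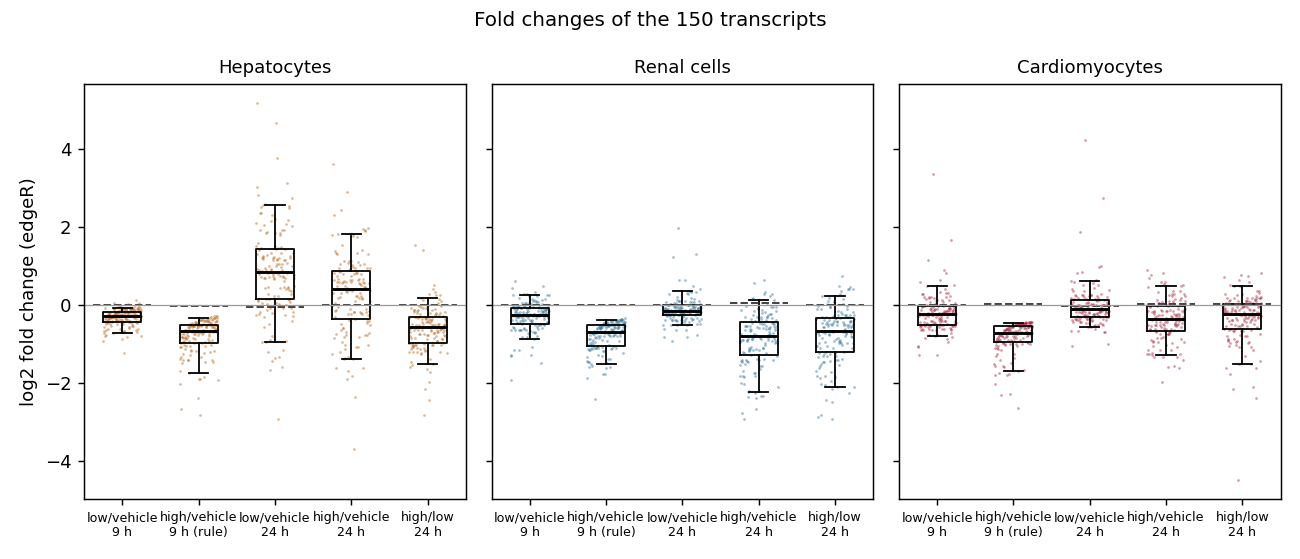
Log2 fold changes (edgeR) of the 150 transcripts in 5 comparisons within each cell type. Each point is a transcript, boxes span the middle 50% with the median as a bar, whiskers reach the 5th and 95th percentiles, and the dashed line is the median of the 11421 transcripts above the level minimum. The high dose against vehicle at 9 h is the contrast of the rule. At 24 h the median is -0.79 in renal cells, -0.34 in cardiomyocytes and 0.41 in hepatocytes.

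The libraries at 24 h took no part in choosing the transcripts, and they show how far the lower levels were found again after a longer exposure. In renal cells, the high dose against vehicle gave 90 of 150 transcripts lower and 1 higher, where 14.9% of all 17798 transcripts tested were lower and 12% higher. Among the transcripts above the level minimum 8.77% were lower. The median log2 fold change was -0.79, beside 0.06 for the transcripts above the level minimum. All 5 high-dose libraries lay below all 5 vehicle libraries for 68.7% of the 150, which held for 15.1% of the 11421. The summed level was 11220 ± 55.0 CPM with vehicle and 6632 ± 115.1 CPM at the high dose, without overlap. Leaving out each library in turn gave between 87 and 93 transcripts called.

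The largest renal decrease at 24 h among calls with no overlap was that of ENSRNOT00000050063, a transcript of 1594 bases. The vehicle libraries were at 8.62, 10.1, 10.2, 10.9 and 10.9 CPM and the high-dose libraries at 1.06, 1.18, 1.19, 1.32 and 2.27 CPM. The high-dose values were all lower, and the log2 fold change was -2.91 (SE 0.21, edgeR adjusted p = 8.69e-07). ENSRNOT00000043736 followed, at 10.2, 11.1, 11.6, 11.9 and 13.4 CPM with vehicle and 0.993, 1.52, 1.80, 2.33 and 2.35 CPM at the high dose. Its log2 fold change was -2.76 (SE 0.23, edgeR adjusted p = 2.41e-06), again with no overlap between the groups. Both had vehicle levels at 24 h above those at 9 h, where they were at 3.42 to 5.39 CPM and 5.38 to 8.04 CPM. In hepatocytes at 24 h, high dose against vehicle, ENSRNOT00000050063 changed by 1.32 on the log2 scale (SE 0.31, edgeR adjusted p = 0.0202). ENSRNOT00000043736 changed by 1.40 there (SE 0.41, edgeR adjusted p = 0.0525), and by 1.35 (SE 0.35, edgeR adjusted p = 0.00876) without library MS-183. The single renal increase was that of ENSRNOT00000085132, at 12.0, 12.8, 13.9, 16.2 and 16.4 CPM with vehicle and 21.2, 22.6, 24.1, 24.3 and 24.9 CPM at the high dose (log2 fold change 0.66, SE 0.10, edgeR adjusted p = 0.000233). All 5 of its high-dose libraries lay above the vehicle libraries, while its low-dose libraries at 24 h ranged from 8.21 to 24.9 CPM. None of the transcripts named here for renal cells has whole counts throughout, so reads shared with other transcripts were divided.

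With the low dose at 24 h in renal cells, 1 transcript was called lower and none higher, where 0.017% of all transcripts tested were lower and 0.0452% higher, and 30 of the set (20%, against 6.33% over all) had an unadjusted p under 0.05. The median log2 fold change was -0.14. Library MS-145, with a summed level of 7904 CPM beside 9989 to 10660 CPM in the other 4, was the lowest of this group, and without it the median was -0.10 and again 1 transcript was called, with 0.295% of all called. The part of its low detection in these values was not tested. The high dose against the low dose at 24 h gave 69 transcripts lower and 1 higher, against 11.3% lower and 8.38% higher over all, and 77 lower and 2 higher without library MS-145, against 12.6% and 10.6%.

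In cardiomyocytes at 24 h, fewer of the transcripts were lower. The high dose against vehicle gave 42 of 150 lower and 4 higher, where 6.39% of all 17286 transcripts tested were lower and 6.01% higher. Among the transcripts above the level minimum 2.99% were lower. The median log2 fold change was -0.34, beside 0.02 for those transcripts, and all 5 high-dose libraries lay below all 5 vehicle libraries for 70 members of the set (46.7%, against 10.8% of the 11421). The summed level was 13860 ± 81.1 CPM with vehicle and 11160 ± 561 CPM at the high dose. Without high-dose library MS-178, which has few detected transcripts, 43 were lower and 5 higher, against 7.54% and 6.42% over all. From 9 to 24 h the high-dose mean was lower for 19 of the 150 transcripts, and the median change was 0.32 (log2 of mean CPM plus 1), whereas for the 11421 the mean was lower for 71.5% and the median change was -0.11. The set was chosen for low values in the high-dose libraries at 9 h, and the part of that choice in the later rise was not tested.

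ENSRNOT00000078979 had the largest cardiomyocyte decrease at 24 h among calls with no overlap. It was at 84.2, 87.8, 95.5, 96.9 and 99.3 CPM with vehicle and 13.6, 22.4, 23.3, 29.0 and 30.1 CPM at the high dose. The groups did not overlap, and the log2 fold change was -1.96 (SE 0.17, edgeR adjusted p = 8.8e-06). ENSRNOT00000012327 was at 80.0, 81.8, 82.8, 85.4 and 85.6 CPM with vehicle and at 20.7, 24.7, 29.5, 30.7 and 31.9 CPM at the high dose (log2 fold change -1.59, SE 0.11, edgeR adjusted p = 1.04e-06). Its vehicle level had been only 31.6 to 39.1 CPM at 9 h, so the gap at 24 h arose beside a higher vehicle level. In hepatocytes at 24 h, high dose against vehicle, ENSRNOT00000078979 changed by 1.09 on the log2 scale (SE 0.25, edgeR adjusted p = 0.0184). ENSRNOT00000012327 changed by 1.05 there (SE 0.47, edgeR adjusted p = 0.197), and by 1.54 (SE 0.10, edgeR adjusted p = 1.52e-06) without library MS-183. Among cardiomyocyte calls with no overlap, the largest increases belonged to ENSRNOT00000090923, ranked 3 by the rule, and ENSRNOT00000061054. The former was at 2.49, 3.18, 3.68, 4.04 and 4.99 CPM with vehicle and at 5.95, 6.66, 7.20, 7.35 and 7.65 CPM at the high dose (log2 fold change 0.91, SE 0.17, edgeR adjusted p = 0.00226). The latter was at 4.94, 5.06, 5.47, 6.27 and 6.37 CPM and at 9.16, 9.30, 9.59, 9.81 and 10.9 CPM (log2 fold change 0.79, SE 0.11, edgeR adjusted p = 0.000263). Both increases had no overlap between groups, and in renal cells both transcripts were lower at the same time, by log2 fold changes of -1.80 (edgeR adjusted p = 0.0049) and -1.68 (edgeR adjusted p = 5.46e-05). None of the transcripts named here for cardiomyocytes has whole counts throughout, so shared reads were divided for them too.

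The low dose at 24 h in cardiomyocytes gave 0 transcripts of the set by edgeR, and 0 of all 16998 tested. At an unadjusted p under 0.05 there were 29 of the set (19.3%) and 2028 of all (11.9%), and DESeq2 called 2 of the set, where it called 1.12% of all. Library MS-172 was at a summed level of 8098 CPM, below 13080 to 13870 CPM in the other 4 libraries, and without it edgeR called 1, and 0.0407% of all. The high dose against the low dose gave 25 lower and 1 higher, against 3.53% lower and 2.11% higher over all. This count ranged from 13 to 30 as each library was left out, with 13 without low-dose library MS-174, 17 without low-dose library MS-171, 14 to 16 without any of the 5 high-dose libraries (15 for MS-178) and 27 without library MS-172 (8.41% of all, beside 5.64% with it).

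**Figure D3:**
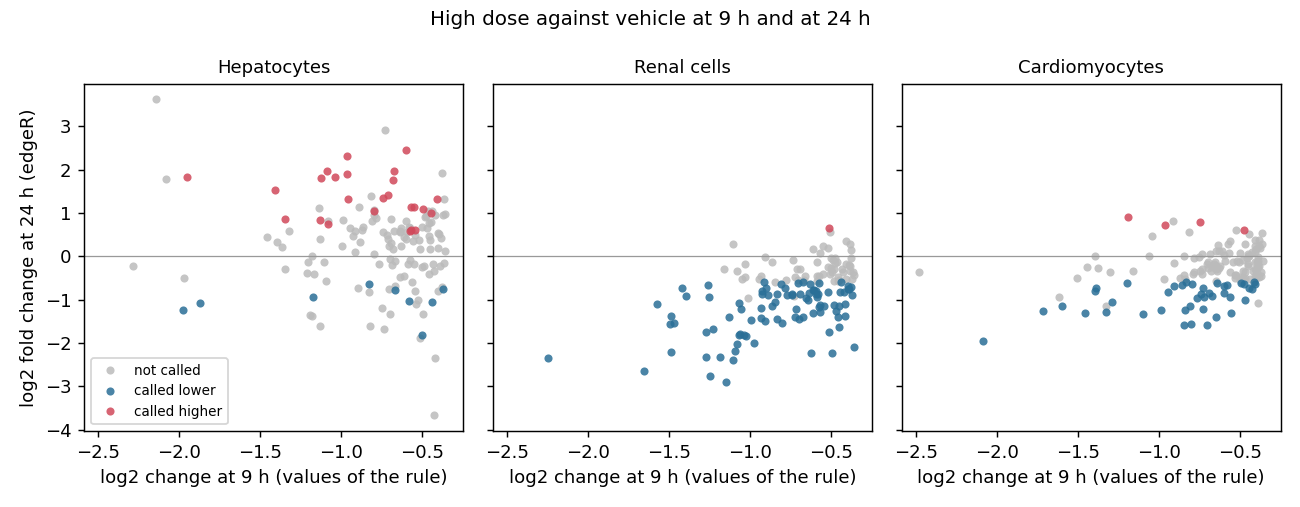
Change of each of the 150 transcripts between high dose and vehicle at 9 h (horizontal axis, log2 of mean CPM plus 1, the values that chose the set) and at 24 h (vertical axis, log2 fold change from edgeR). Colours mark the call at 24 h. Blue points, called lower, number 90 in renal cells, 42 in cardiomyocytes and 9 in hepatocytes, and red points, called higher, number 1, 4 and 25.

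In hepatocytes at 24 h the direction against vehicle differed. The high dose gave 9 transcripts lower and 25 higher, with 1 of the set not tested, where 3.72% of all 16325 transcripts tested were lower and 6.65% higher. Among the transcripts above the level minimum 4.67% were higher. The median log2 fold change was 0.41, beside 0.003 for those transcripts. Without vehicle library MS-183 there were 17 lower and 60 higher, against 11.6% lower and 15.1% higher over all, and the median was 0.44. Leaving out any other library gave between 15 and 24 transcripts called in all. All 5 high-dose libraries lay above all 5 vehicle libraries for 40 transcripts (26.7%, against 14.2% of the 11421) and below them for 16 (10.7%, against 6.37%). Without library MS-183 they lay above the remaining vehicle libraries for 66 (44%, against 19.7%) and below them for 26 (17.3%, against 23.0%). The lower share was then below that of the 11421.

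Against the low dose the vehicle libraries stood further apart. The low dose at 24 h gave 4 transcripts lower and 73 higher, where 7.89% of all 16597 transcripts tested were lower and 11.6% higher, with a median log2 fold change of 0.86. DESeq2 gave 5 lower and 84 higher, but over all transcripts it turned the balance, with 21.3% lower and 11.4% higher. Without library MS-183 there were 5 lower, and 67.3% of the 150 were higher, where 16.9% of all transcripts tested were lower and 20.1% higher. The summed level was 5045 ± 376 CPM with vehicle, 9029 ± 304 CPM at the low dose and 6268 ± 422 CPM at the high dose. Of the 3 groups, the vehicle libraries were thus the lowest and the low-dose libraries the highest, with no overlap. The 2 comparisons with vehicle share those 5 libraries, so a low vehicle value raises both.

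The 24 h vehicle level itself was low for these transcripts. Between vehicle at 9 h and vehicle at 24 h the median change was -0.71 in hepatocytes (log2 of mean CPM plus 1), beside -0.06 for the 11421 transcripts, and -0.75 without library MS-183. In renal cells and cardiomyocytes the same comparison gave -0.10 and -0.04, beside -0.10 and -0.05. The 150 transcripts that the same rule picks when turned round, those most raised in all 3 cell types at 9 h, moved the opposite way in hepatocyte vehicle cultures, by a median of 0.71. The rule used the vehicle libraries at 9 h to choose both lists, as high for the one and low for the other. The part of that choice in these movements was not tested. Set against the vehicle libraries at 9 h, the hepatocyte high-dose libraries at 24 h were lower for 78% of the 150 transcripts, with a median change of -0.44, beside 49.2% and 0.007 for the 11421. This comparison too is with a group that the rule used. These comparisons cross exposure times, and the first of them also crosses the break in library numbers. They are given as descriptions.

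High dose against low dose at 24 h uses neither the vehicle libraries nor any library of the rule. In hepatocytes it gave 68 of 150 transcripts lower and 0 higher by edgeR, where 8.34% of all 16891 transcripts tested were lower and 6.58% higher. Of the set, 120 had an unadjusted p under 0.05, in either direction (80%, against 48.8% over all). The median log2 fold change was -0.55, beside 0.01 for the transcripts above the level minimum. All 5 high-dose libraries lay below all 5 low-dose libraries for 92 transcripts (61.3%, against 19.4% of the 11421), and the count of calls stayed between 63 and 71 with each library left out.

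ENSRNOT00000002869 had the largest hepatocyte decrease against vehicle at 24 h among calls with no overlap. The vehicle libraries were at 10.7, 10.9, 11.3, 13.0 and 60.2 CPM, the last being library MS-183, and the high-dose libraries at 4.07, 4.59, 4.76, 5.07 and 5.26 CPM. The log2 fold change was -1.82 (SE 0.45, edgeR adjusted p = 0.025), and -1.30 (SE 0.10, edgeR adjusted p = 4.42e-06) without library MS-183. The second largest was that of ENSRNOT00000019579, with -1.25 (SE 0.22, edgeR adjusted p = 0.00414), or -1.09 (SE 0.12, edgeR adjusted p = 4.95e-05) without library MS-183. Both decreases were therefore smaller, and more precise, without that library.

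The largest hepatocyte increase among calls with no overlap was that of ENSRNOT00000001118. It was at 0, 0.113, 1.09, 1.37 and 1.86 CPM with vehicle, the 0 in library MS-183, and at 3.81, 6.14, 6.22, 6.87 and 7.70 CPM at the high dose (log2 fold change 2.46, SE 0.59, edgeR adjusted p = 0.0228). In the vehicle libraries at 9 h it had been at 7.84 to 9.88 CPM, so the high-dose level at 24 h lay below the earlier vehicle level. In renal cells at 24 h the same transcript fell from 48.4, 52.8, 57.7, 59.9 and 61.4 CPM to 9.87, 12.2, 13.1, 14.1 and 14.7 CPM (log2 fold change -2.18, SE 0.09, edgeR adjusted p = 2.03e-08). ENSRNOT00000045678, of 7470 bases, was second, at 0, 7.51, 8.91, 9.45 and 17.7 CPM with vehicle and 34.8, 37.9, 39.0, 44.0 and 47.8 CPM at the high dose (log2 fold change 1.98, SE 0.34, edgeR adjusted p = 0.00379). It too had been higher in vehicle cultures at 9 h, at 43.3 to 76.0 CPM, and at 24 h its low-dose libraries were at 56.1 to 82.7 CPM, above every high-dose library. Neither transcript has whole counts throughout, so reads shared with other transcripts were divided by the quantifier.

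The high-dose changes of the cell types were compared directly, as the difference of 2 log fold changes for high dose against vehicle at 24 h in one edgeR fit of 4 groups. Between hepatocytes and renal cells it was called for 95 of 150 transcripts, with the hepatocyte change the higher for 94 (background 13.9%) and the lower for 1 (12.6%). The median difference was 1.17 on the log2 scale. Between hepatocytes and cardiomyocytes 68 were called, 62 with the higher hepatocyte change (8.97%) and 6 with the lower (8.32%). Between renal cells and cardiomyocytes 70 were called, and the renal change was the lower for 61 (11.3%) and the higher for 9 (9.88%). Without library MS-183 the first 2 counts were 110 and 93, where 37.1% and 28.4% of all transcripts tested were called in either direction, beside 26.5% and 17.3% with it. The high dose is a different concentration in each cell type, so cell type and concentration cannot be told apart in any of these comparisons. Those with hepatocytes also rest on the 24 h hepatocyte vehicle libraries, where a possible batch cannot be told apart from the treatment. The renal and cardiomyocyte difference does not involve the hepatocyte vehicle libraries.

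Over the 3 cell types, 107 of the 150 transcripts (71.3%, against 13.5% of the 11421) were lower at 24 h than vehicle in at least 1, and 35 (23.3%, against 71.8%) were called in none. Without library MS-183 these shares were 74% against 20.8% and 17.3% against 63.5%. Lower levels in both renal cells and cardiomyocytes were found for 26 (17.3%, against 1.26% of the 11421), which is 28.9% of the 90 renal and 61.9% of the 42 cardiomyocyte decreases, where 28% of all 150 were lower in cardiomyocytes and 60% in renal cells. A further 64 (42.7%, against 7.5%) were lower in renal cells and not called lower in cardiomyocytes, and 16 (10.7%, against 1.72%) the reverse. Taking hepatocytes at the high against the low dose, 48 transcripts (32%, against 1.48%) were lower there and lower in renal cells against vehicle, which is 53.3% of the renal decreases and 70.6% of the 68 hepatocyte ones, where 45.3% of all 150 were lower in hepatocytes and 60% in renal cells. There were 18 transcripts (12%, against 1.46%) lower in renal cells and higher in hepatocytes against vehicle, and 42 (28%, against 2.85%) without library MS-183.

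Only 2 transcripts (1.33%, against 0.0438% of the 11421), ENSRNOT00000073718 and ENSRNOT00000071603, were called lower against vehicle at 24 h in all 3 cell types, and they are named after their values were seen. Without library MS-183 ENSRNOT00000086414 joined them (2%, against 0.0963%). ENSRNOT00000073718 has 7413 bases and whole counts in all libraries. Its hepatocyte libraries were at 50.4, 54.2, 55.2, 56.2 and 68.9 CPM with vehicle and 24.2, 25.4, 25.7, 29.4 and 35.8 CPM at the high dose (log2 fold change -1.02, SE 0.16, edgeR adjusted p = 0.00269). In renal cells it was at 81.8 to 104.9 CPM and 46.3 to 65.04 CPM (-0.81, SE 0.13, edgeR adjusted p = 0.00043), and in cardiomyocytes at 6.74 to 8.03 CPM and 3.80 to 5.30 CPM (-0.73, SE 0.11, edgeR adjusted p = 0.000571). The groups did not overlap in any cell type. ENSRNOT00000071603 fell by 1.07, 1.38 and 1.14 on the log2 scale in hepatocytes, renal cells and cardiomyocytes (edgeR adjusted p = 0.0135, 0.000453 and 1.84e-06). Its hepatocyte groups overlapped through library MS-183, at 68.2 CPM beside 142.5 to 158.4 CPM in the other vehicle libraries and 54.6 to 77.4 CPM at the high dose. Its level was 92.3 ± 6.92 CPM in cardiomyocyte and 3.89 ± 0.46 CPM in renal vehicle cultures at 24 h. Its estimated counts were not whole in every library.

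**Figure D4:**
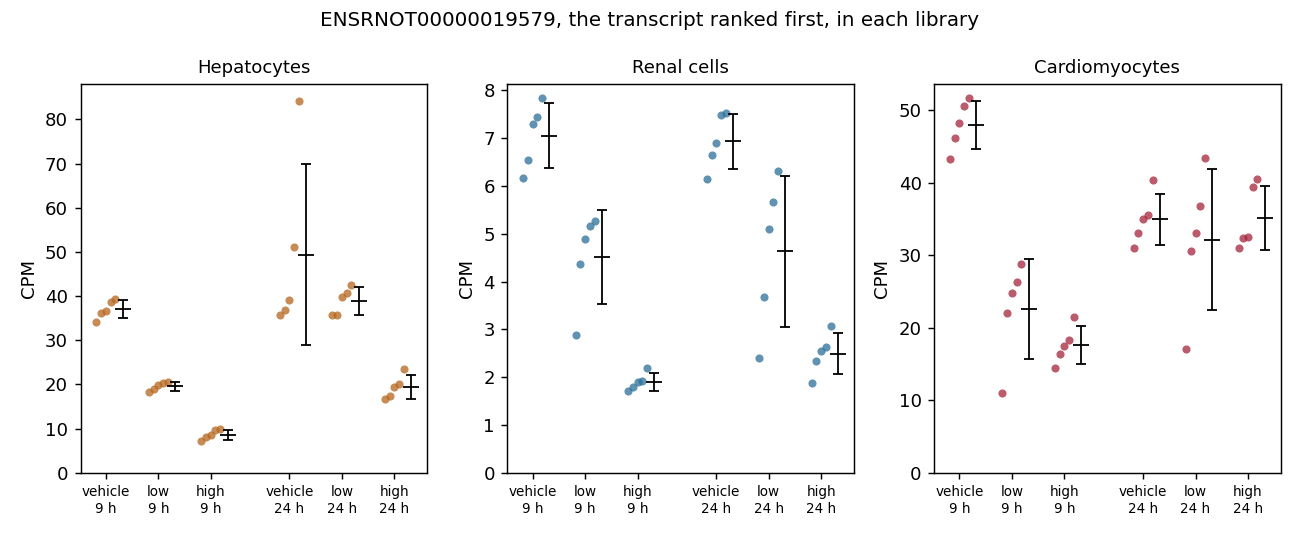
Level (CPM, linear axes from 0 with a separate scale per cell type) of ENSRNOT00000019579, the transcript ranked first, in each of the 90 libraries. Points are libraries in order of value, and bars are the mean and SD of 5. At 24 h the high-dose cardiomyocyte libraries (30.99 to 40.5 CPM) overlap with the vehicle libraries (30.97 to 40.4 CPM), while the renal high-dose libraries (1.89 to 3.07 CPM) stay below theirs.

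Followed through all 18 conditions, ENSRNOT00000019579 parted between cell types at 24 h. In renal cells it was at 6.15, 6.65, 6.90, 7.48 and 7.52 CPM with vehicle and 1.89, 2.33, 2.55, 2.63 and 3.07 CPM at the high dose (log2 fold change -1.53, SE 0.14, edgeR adjusted p = 5.71e-06). All 5 high-dose libraries lay below the vehicle libraries. In cardiomyocytes it was at 30.97, 33, 35.02, 35.5 and 40.4 CPM with vehicle and 30.99, 32.3, 32.5, 39.5 and 40.5 CPM at the high dose, with a log2 fold change of 0.00 (SE 0.10, edgeR adjusted p = 0.991). In hepatocytes the vehicle libraries held 35.6, 36.9, 39.0, 51.0 and 84.2 CPM, the last being library MS-183, and the high-dose libraries 16.8, 17.3, 19.4, 20.1 and 23.4 CPM. High-dose hepatocytes were also below low-dose hepatocytes, which were at 35.6 to 42.6 CPM (log2 fold change -0.97, SE 0.09, edgeR adjusted p = 2.02e-05). The cardiomyocyte change differed from the renal one by 1.51 on the log2 scale (renal minus cardiomyocyte -1.51, edgeR adjusted p = 1.02e-06) and from the hepatocyte one by 1.13 (hepatocyte minus cardiomyocyte -1.13, edgeR adjusted p = 0.000344). Between hepatocytes and renal cells the difference of 0.39 did not pass (edgeR adjusted p = 0.2).

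ENSRNOT00000074586, ranked second, took the opposite course in hepatocytes. Its vehicle libraries at 24 h were at 11.3, 12.0, 15.4, 16.4 and 16.9 CPM, far below the 42.6 to 55.8 CPM of vehicle cultures at 9 h, and its high-dose libraries were at 47.9, 48.6, 48.6, 51.7 and 65.3 CPM (log2 fold change 1.80, SE 0.16, edgeR adjusted p = 7.43e-05). Library MS-183, at 12.0 CPM, was not apart from the other vehicle libraries here, and the value without it was 1.77. In cardiomyocytes the transcript was at 114.9 to 121.6 CPM with vehicle and 44.8 to 56.0 CPM at the high dose (log2 fold change -1.26, SE 0.07, edgeR adjusted p = 2.71e-07), and in renal cells at 4.47 to 6.05 CPM and 2.59 to 3.52 CPM (-0.94, SE 0.12, edgeR adjusted p = 5.48e-05). The hepatocyte change exceeded the renal one by 2.79 (edgeR adjusted p = 1.43e-09) and the cardiomyocyte one by 3.08 (edgeR adjusted p = 3.66e-10) on the log2 scale.

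The transcript with the highest vehicle level of the set at 9 h was ENSRNOT00000081980, at 878 ± 18.8 CPM in hepatocytes, 480 ± 8.36 CPM in renal cells and 526 ± 30.4 CPM in cardiomyocytes. Per length, its vehicle level was 402 ± 8.13 TPM (transcript level per base of length), 241 ± 3.65 TPM and 262 ± 15.4 TPM. At 24 h its high-dose log2 fold change was -0.57 in renal cells (SE 0.16, edgeR adjusted p = 0.0133), -0.34 in cardiomyocytes (SE 0.09, edgeR adjusted p = 0.0132) and 0.89 in hepatocytes (SE 0.39, edgeR adjusted p = 0.189). With all libraries none of these was called: the first 2 were below the fold limit and the last missed the adjusted p. Without library MS-183, where it was at 96.3 CPM beside 433 to 496 CPM in the other vehicle libraries, the hepatocyte value was 0.64 (SE 0.12, edgeR adjusted p = 0.00159), and the transcript was then called higher. Its estimated counts were not whole throughout.

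The rule did not use length. The 150 transcripts were longer than the rest, with a median of 3227 bases (middle 50%, 1901 to 4427 bases) beside 2253 bases (1486 to 3483 bases) for the 11421. Transcripts over 5000 bases made up 22.7% of the set, 10.1% of the 11421 and 8.67% of the 150 most raised in all 3 cell types. Transcripts under 1000 bases made up 5.33%, 10.95% and 11.3%. With the 11421 cut by length into 4 classes of nearly equal size, the set took 0.63% of the shortest class and 2.38% of the longest. In the longest class the median 9 h change of all transcripts was -0.12 in hepatocytes, -0.04 in renal cells and 0.07 in cardiomyocytes, beside -0.07 to -0.09, -0.03 to 0.03 and 0.05 to 0.09 in the other classes. The part of length in the result was not tested, since the set was chosen from the same libraries.

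**Figure D5:**
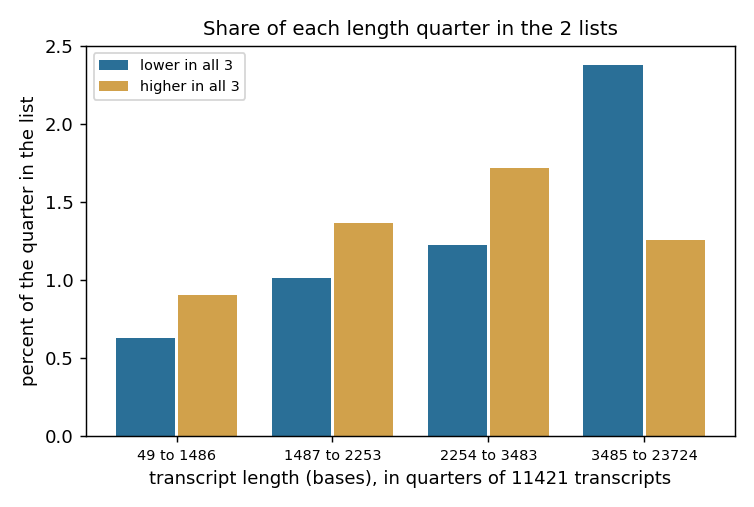
Share of the transcripts in each of 4 length classes of the 11421 above the level minimum (horizontal axis, bases) that belongs to the 150 transcripts lower in all 3 cell types or to the 150 higher in all 3. Bars are percent of the class, with no error because each is a complete count. The share of the former runs from 0.63% in the shortest class to 2.38% in the longest, and that of the latter is 0.91%, 1.37%, 1.72% and 1.26% from the shortest class to the longest.

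Vehicle levels at 9 h placed the set highest in cardiomyocytes. These levels entered the rule, through the minimum and through the change with its added 1 CPM, and are given as a description. The median was 41.5 CPM there, 25.95 CPM in renal cells and 17.4 CPM in hepatocytes, beside 27.0, 29.7 and 27.5 CPM for the 11421. The highest of the 3 vehicle levels was the cardiomyocyte one for 68 of the 150, the renal one for 46 and the hepatocyte one for 36, where the shares among the 11421 were 26.1%, 35.6% and 38.3%. Whole counts in all libraries were found for 49 of the 150 (32.7%) and for 38.65% of the 11421, so for most of the set some reads were divided among transcripts. Several members may be transcripts of one gene, and the 150 are then not separate genes.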

How the data were processed

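RNA was measured in 90 libraries, 5 for each of 18 groups taken from the sample labels. For each library the authors deposited an estimated count and a TPM for every target, made with kallisto 0.42.4 against the Rnor_6.0 transcriptome, per the labels and the study's methods. An estimated count need not be whole, since reads that fit several transcripts are divided. Of 65166 targets, 25095 genomic intervals were left out. The members and the comparisons were chosen with earlier results of these data known.

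Rounded estimated counts were tested with edgeR 4.0.16 under R 4.3.3 (glmQLFit and glmQLFTest, after filterByExpr and TMM scaling), fitted on the groups compared, with Benjamini-Hochberg adjustment over all transcripts tested. The functions were tested on simulated data. Alternatives were DESeq2 1.42.0, upper-quartile factors, transcripts with at least 1 count, a joint fit of the 6 groups from each cell type, and each library left out. Leaving out libraries MS-183, MS-145, MS-158 and MS-172 together for the medians was chosen after seeing the data. Named transcripts were those ranked 1, 2, 150 and 151, the highest vehicle level, and, per cell type at 24 h, up to 2 largest decreases and 2 largest increases called with no overlap. The gene lists and markers planned could not be matched. Counting error was not measured. It is largest in library MS-183, where 1 count is about 4.01 CPM. In other libraries low values also rest on few counts, such as 0.113 CPM for ENSRNOT00000001118 in a hepatocyte vehicle library at 24 h. Another is 0.344 CPM for ENSRNOT00000090923 in a high-dose renal library at 24 h.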

Additional observations from a re-analysis of the deposited data

Results flagged for a closer look

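The summed level of the 150 transcripts was compared between the 5 libraries of each group, and in 3 of 18 groups 1 library stood apart from the other 4 by Dixon's criterion (chance gives about 1 group in 20). Low-dose cardiomyocyte library MS-172 at 24 h was at 8098 CPM beside 13080 to 13870 CPM, low-dose cardiomyocyte library MS-158 at 9 h at 7913 CPM beside 11780 to 13020 CPM, and low-dose renal library MS-145 at 24 h at 7904 CPM beside 9989 to 10660 CPM. Each was also the library of its group with the fewest detected transcripts, 16942, 19177 and 19227 beside at least 21248, 23191 and 21892. The median difference of the 150 transcripts from the vehicle mean was -1.08, -1.07 and -0.83 on the log2 scale in these libraries, and between -0.24 and -0.05 in the other 4 of each group. The part of these libraries' low detection in their levels was not tested.

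The high-dose change at 24 h differed between cell types for 95 transcripts between hepatocytes and renal cells, for 68 between hepatocytes and cardiomyocytes and for 70 between renal cells and cardiomyocytes, by edgeR's test of the difference, where 26.5%, 17.3% and 21.2% of all transcripts tested were called. Cell type and concentration cannot be told apart here, nor can a possible batch of the 24 h hepatocyte vehicle libraries.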

How the results depend on the processing

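No paired analysis was possible because library numbers are not shared between groups. Of 60 alternatives other than left-out libraries, 52 gave a count within 1.5 times the reported one. In hepatocytes the high dose against vehicle at 24 h (34 called) gave 62 with DESeq2 and 71 with all 6 groups in one fit. It gave 12 with every transcript of at least 1 count, which tests more transcripts and called 557 of all 30351. Over all transcripts the calls were 1085 higher and 608 lower with edgeR, whereas DESeq2 called 2019 up and 4258 down and the joint fit 2515 up and 2424 down. The low dose against vehicle (77) gave 40 with at least 1 count, and over all transcripts the calls were 1918 higher and 1310 lower with edgeR, whereas DESeq2 called 2776 up and 5170 down. In renal cells the low dose at 24 h (1) gave 5 in one fit, and in cardiomyocytes (0) it gave 2 with DESeq2 (which called 1.12% of all) and 2 in one fit. The cause of these differences was not tested. With a minimum of 10 CPM the rule lists 92 transcripts, and they include 39.3% of the set. With a pseudocount of 5, TMM scaling or TPM it keeps 77.3%, 84.7% or 71.3% of the set.

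With each library left out, counts for high dose against vehicle at 24 h ranged from 15 to 77 in hepatocytes, 87 to 93 in renal cells and 41 to 48 in cardiomyocytes. For low dose against vehicle at 24 h they ranged from 57 to 106, 1 to 1 and 0 to 1, and at 9 h from 9 to 20, 21 to 27 and 9 to 16. High against low dose gave 63 to 71, 60 to 79 and 13 to 30. The differences between cell types gave 86 to 110 (hepatocytes and renal cells), 63 to 93 (hepatocytes and cardiomyocytes) and 68 to 73 (renal cells and cardiomyocytes), and the rule kept 94% to 98% of the set. The hepatocyte values of 77 and 106 were those without library MS-183. The count of 15 for hepatocytes was that without high-dose library MS-116, and the 9 h counts of 9 were those without vehicle libraries MS-91 and MS-93 in hepatocytes and MS-155 in cardiomyocytes.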
